A study of Mus musculus with 12 samples.

Results

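The cytosolic ribosome is built from a large subunit, whose proteins are encoded by Rpl genes, and a small subunit, whose proteins are encoded by Rps genes, and the transcripts of these genes were followed here in mouse muscle. A gene was taken as a member when its name in the array design was Rpl or Rps with a number and at most one further letter a, x or l, or was one of the stalk protein genes Rplp0, Rplp1 and Rplp2. This rule found 79 genes, 48 of the large and 31 of the small subunit, among 34821 gene names on the array. They were measured by 182 of the 55681 probes, and each gene was represented by its brightest probe over the 12 arrays. The rule used no comparison between groups. The study asked how loss of the taurine transporter TauT alters skeletal muscle in youth and in age. RNA of the tibialis anterior, a leg muscle labelled tibial anterior, of male C57BL6 mice was hybridised in 1 colour, with 1 array per mouse. The 4 groups were young WT and young TauTKO mice of 3 months and old WT and old TauTKO mice of 18 months, with 3 mice each. Per the methods, wild-type and knockout mice came from breeding heterozygous parents.

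Each ribosome contains a single copy of most of these proteins, and their genes are transcribed strongly and together in growing tissue. Their mRNAs begin with a tract of pyrimidines through which mTOR signalling controls how many of them are translated, a step that an array of mRNA does not see. Most tissues use the same set of ribosomal proteins, whereas Rpl3l, a paralogue of Rpl3, is made in skeletal muscle and heart. Rpl3 and Rpl3l occupy the same place in the large subunit, near the site where peptide bonds are formed.

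The values are log2 signals relative to the 75th percentile of all probes of the same array, and differences between groups are log2 fold changes. A gene was past the test at an adjusted p under 0.05 (limma, Benjamini-Hochberg adjustment over the 38973 probes tested). Of the 79 genes 78 were tested, since Rpl10l, a testis-type paralogue of Rpl10, was not well above background on all arrays of any group. Slide 1 held the young and slide 2 the old mice, and the effects of age and slide cannot be told apart. The probe of the targeted gene Slc6a6, which encodes TauT, was higher in the arrays labelled TauTKO, with log2 fold changes of 0.85 at 18 months (limma adjusted p = 0.0297) and 0.79 at 3 months (limma adjusted p = 0.0987). A loss of the transcript would give the opposite sign. Whether the probe lies in the deleted part of the gene is not given in the sources used here, so it does not settle the labels, and every direction below rests on them. The 75th percentile ranged from 429.8 to 562.1, and the share of probes well above background ranged from 65.4% to 74.3%. Each array is a mixture of cells, so fewer cells of a type and less RNA per cell cannot be told apart. The fast fibre markers, which define this muscle, were bright on all arrays, with a summed level (the log2 of their summed signals) between 12.9 and 13.4.

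In old mice, ribosomal protein genes differed little with the genotype on the label. Of the 78 genes tested, 0 were past the test, against 6.1% of all probes, 3.58% higher and 2.52% lower. At an unadjusted p under 0.05, limma gave 0 of the 78 genes and 22.8% of all probes, and the per-probe test named in the methods gave 3 genes, Rpl10a and Rpl13a among them, where 16.7% of all probes passed it. The median log2 fold change was 0.01 over the 47 large subunit genes and -0.01 over the 31 small subunit genes, against -0.08 over all probes. By sign alone 40 genes were higher and 38 lower, and 39.5% of all probes were higher. The spread behind these values was small, with a median residual SD of 0.0821 among the 77 genes other than Rpl39l against 0.205 for all probes. For the same 77 genes the 95% interval of the fold change lay within 1.5-fold in either direction, as did that of 46.9% of all probes, and for 42 genes it lay within 1.2-fold, against 6.32% of all probes.

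**Figure D1:**
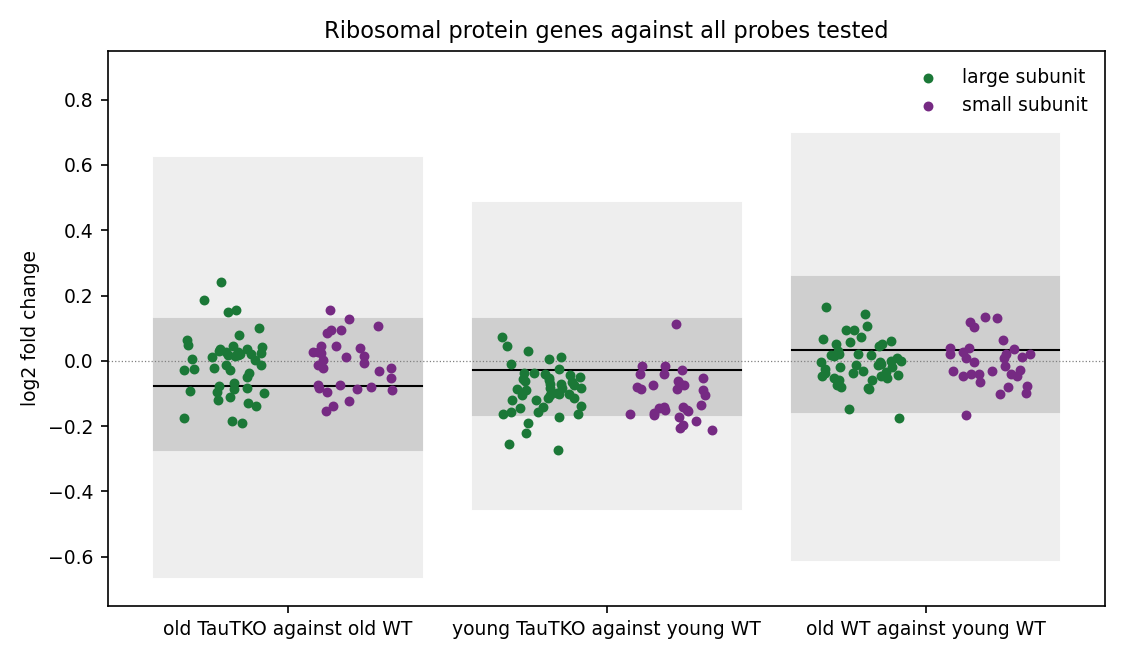
Log2 fold changes (vertical axis) of 77 ribosomal protein genes in 3 comparisons, large subunit genes in green and small subunit genes in purple. Light grey spans the 5th to 95th and dark grey the 25th to 75th percentile of all 38973 probes, the black line is their median, and Rpl39l, which is near background, is not drawn. The genes of the old comparison lie between -0.19 and 0.24, inside the light grey band.

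The genes with the smallest adjusted p in old mice were a mixture of higher and lower values. Rpl36a, which contacts the end of the exiting tRNA, had log2 signals of 4.76, 4.83 and 4.97 in old WT and 5.04, 4.97 and 5.12 in old TauTKO. Its 2 groups met without crossing, with a log2 fold change of 0.19 (SE 0.09, limma adjusted p = 0.233). Rpl10a, a large subunit protein at the exit site for tRNA, had 6.94, 7.0 and 7.14 in old WT and 6.87, 6.77 and 6.86 in old TauTKO. All 3 TauTKO arrays of Rpl10a lay below the WT arrays, with a log2 fold change of -0.19 (SE 0.09, limma adjusted p = 0.250). Rpl13a, which also serves outside the ribosome as a repressor of inflammatory mRNAs, had 0.16 (limma adjusted p = 0.304). Rpl15 and Rps9 had -0.14 each, Rpl10 had 0.15, and Rps27 had -0.15. The groups did not overlap for 5 genes that were higher in TauTKO, namely Rpl13a, Rpl36a, Rps20, Rps21 and Rps27l, where 11.6% of all probes were so placed. They did not overlap for 7 genes that were lower, among them Rpl10a, Rpl11, Rpl21, Rpl23a, Rpl28 and Rps7, against 15.6% of all probes. Both shares of the 78 genes, 6.41% and 8.97%, were below those of all probes.

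None of the genes with known roles beyond the shared core was past the test in old mice, and Rpl11 lay farthest from 0 among those given here. The stalk proteins Rplp0, Rplp1 and Rplp2, which recruit the factors of elongation, had log2 fold changes of 0.07, 0.02 and 0.03 there. Rps6, the small subunit protein that the S6 kinases phosphorylate, had 6.27, 6.37 and 6.48 in old WT and 6.45, 6.34 and 6.46 in old TauTKO. These overlap, and the log2 fold change of Rps6 was 0.04 with a 95% interval from -0.15 to 0.23. Rpl5 and Rpl11 form a particle with the 5S RNA and bind Mdm2, the ubiquitin ligase of p53, when ribosome assembly fails. Rpl5 had -0.09 in old mice and -0.10 in young mice, and Rpl11 had -0.18 and -0.16. For Rpl11 the lowest arrays of each age were labelled TauTKO, with 6.62 in old and 6.77 in young mice, against 7.0 to 7.15 in all WT arrays. The remaining TauTKO arrays of Rpl11 lay close to the WT arrays, with 6.997 and 6.973 in old and 7.053 and 7.013 in young mice. The young groups overlapped, and the nearest old arrays lay at 6.997 in TauTKO and 7.005 in WT. The limma adjusted p of Rpl11 was 0.384 in old and 0.668 in young mice. Rps19, mutated in Diamond-Blackfan anaemia, had -0.01 in old and -0.16 in young mice. Rpl32, the one member that shares chromosome 6 with Slc6a6, lies 24.05 Mb away and had 0.02 in old and -0.08 in young mice.

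In young mice most ribosomal protein genes were slightly lower in the arrays labelled TauTKO, by amounts that did not pass the test. Of the 78 genes, 0 were past the test, against 0.836% of all probes. At an unadjusted p under 0.05, limma gave 6 genes, 1 higher and 5 lower, which is 7.69% against 12.8% of all probes. The methods' per-probe test gave 9 genes at an unadjusted p, against 14.6% of all probes, and 0 after adjustment. By sign alone 71 of the 78 genes were lower, 41 of the large and 30 of the small subunit, where 55.4% of all probes were lower. The median log2 fold change was -0.08 for large and -0.11 for small subunit genes, against -0.03 over all probes. The median log2 signal of the small subunit genes was 6.86, 6.72 and 6.90 on the young WT arrays and 6.76, 6.68 and 6.70 on the young TauTKO arrays. The WT and TauTKO arrays overlapped in it, because young WT replicate 2 lay with the TauTKO arrays.

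**Figure D2:**
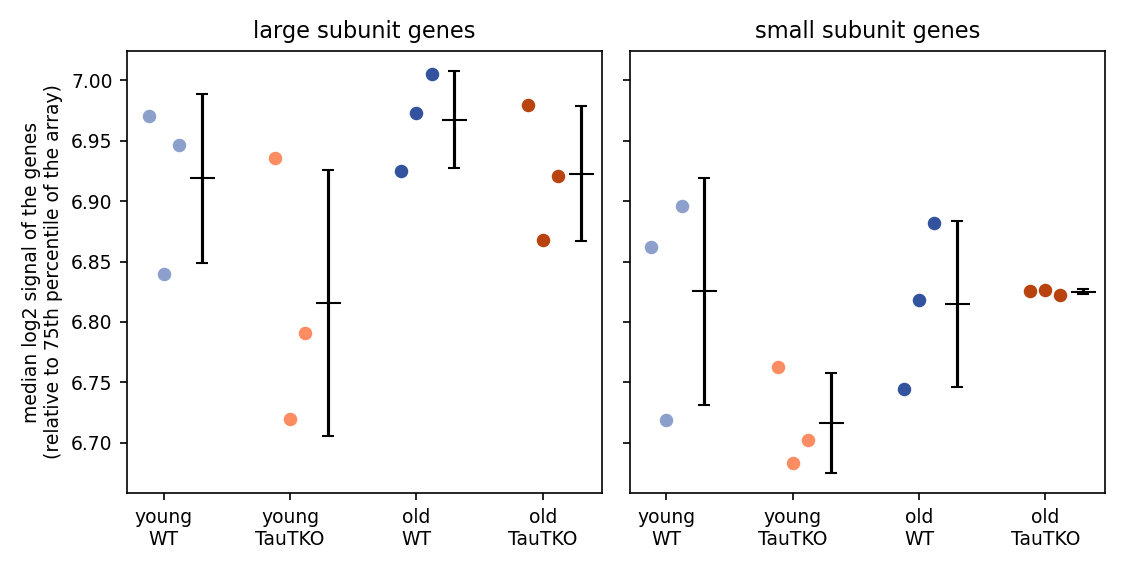
Median log2 signal of the large (left) and small (right) subunit genes on each array (points, 3 per group), relative to the 75th percentile of the array, with the group mean and SD in black. The young TauTKO arrays have means of 6.82 for large and 6.72 for small subunit genes, the lowest of the 4 groups, and their points overlap with those of young WT.

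This direction depended on how the arrays were scaled. With quantile normalization 36 of the 78 genes were higher and 42 lower in young TauTKO, and with cyclic loess 34 were higher and 44 lower. With the median of all probes 66 genes were lower, and with normexp background correction 67, where 51.5% and 34.4% of all probes were higher. The reference itself differed between the genotypes at both ages. The 75th percentile of the young WT arrays lay between 429.9 and 502.6 and that of the young TauTKO arrays between 507.8 and 532.9. In old mice it lay between 429.8 and 474.0 in WT and between 478.7 and 562.1 in TauTKO. Its part in the directions was not tested. In old mice the split was 40 higher and 38 lower. It became 59 and 19 with quantile normalization and 54 and 24 with cyclic loess, where 46.8% and 48.3% of all probes were higher. It was 52 and 26 with normexp, against 34% of all probes higher, and 68 and 10 with the median of all probes. With the 75th percentile of probes well above background on all arrays it went the other way, to 33 higher and 45 lower. Under that scaling 37.4% of all probes were higher. The median scaling moved the median of all probes by 0.10 in old mice, and 54% of all probes were then higher.

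**Figure D3:**
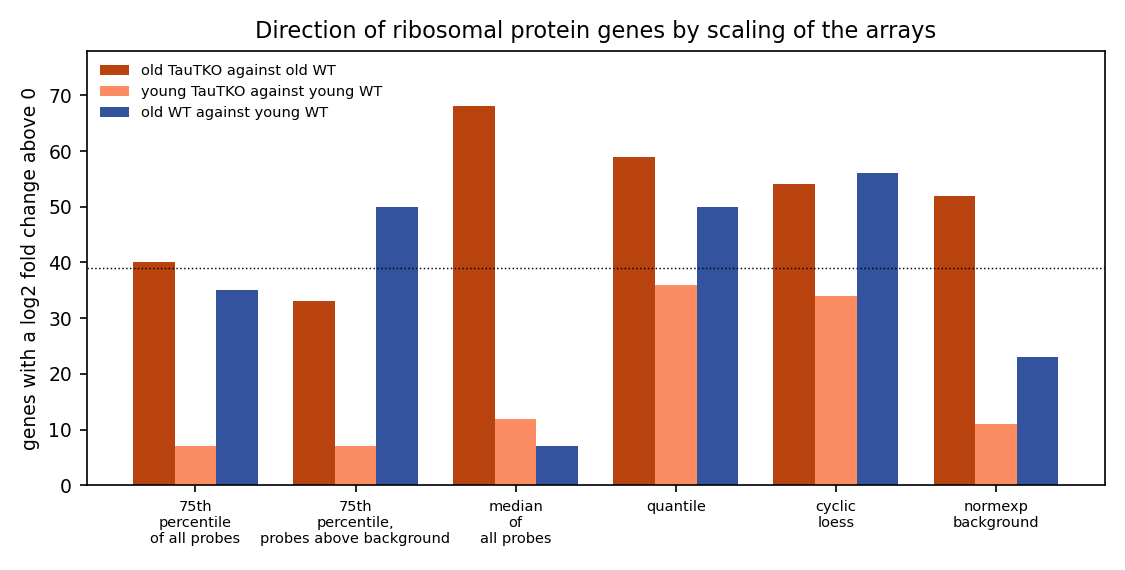
Number of the 78 ribosomal protein genes with a log2 fold change above 0 (vertical axis) under 6 ways of scaling the arrays, in 3 comparisons (bar colours), with a dotted line at equal numbers of higher and lower genes. In young TauTKO against young WT (light orange) the number is 7 under the 75th percentile and 36 under quantile normalization, and for the other comparisons the bars cross the dotted line.

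The 5 lower genes with an unadjusted p under 0.05 in young mice included Rpl10a, Rpl30 and Rps9. Rpl30 had log2 signals of 6.30, 6.08 and 6.21 in young WT and 6.07, 5.84 and 5.87 in young TauTKO. The highest TauTKO array of Rpl30 lay next to the lowest WT array, and its log2 fold change was -0.27 (limma adjusted p = 0.255). Rps9 had -0.21 and Rpl10a -0.22, with limma adjusted p-values of 0.320 and 0.341. Rps2, a core protein of the small subunit, went the other way, with 7.32, 7.28 and 7.30 in young WT and 7.42, 7.41 and 7.41 in young TauTKO. The arrays of each group for Rps2 lay close together and apart from the other group, and the log2 fold change was 0.11 (SE 0.07, limma adjusted p = 0.586). The groups did not overlap for 12 genes lower in young TauTKO, 15.4% of the 78 against 12.5% of all probes, and for 2 that were higher, Rps2 and Rpl39l, against 9.81%.

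Between old and young WT mice, ribosomal protein transcripts differed little. Of the 78 genes, 0 were past the test in old against young WT, where 5.04% of all probes were. At an unadjusted p under 0.05, limma gave 1 gene, Rps2, against 22.5% of all probes, and the methods' per-probe test gave Rpl13a, Rpl38 and Rps2, where 22.5% of all probes passed it too. The median log2 fold change was -0.01 for large and -0.0033 for small subunit genes, and 0.03 over all probes. By sign 35 genes were higher and 43 lower, where 54.8% of all probes were higher. This split too depended on the scaling. With the median of all probes 71 genes were lower, and with cyclic loess 56 were higher, where 40.9% and 48.9% of all probes were higher. The 95% interval of 57 genes lay within 1.2-fold, as did that of 7.17% of all probes, again not matched for brightness. Rps2 was 7.08, 7.10 and 7.23 in old WT against the young values given above, with a log2 fold change of -0.16 (SE 0.07, limma adjusted p = 0.207). Rpl13a had the largest positive value, 0.17 (limma adjusted p = 0.278), and Rpl7 the largest negative one other than Rpl39l, -0.17 (limma adjusted p = 0.407). Rpl38, which takes part in the translation of Hox mRNAs in the embryo, had 0.14 (limma adjusted p = 0.335).

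Old against young mice labelled TauTKO gave slightly higher values for most genes. Of the 78 genes, 0 were past the test, against 5.14% of all probes, and 10 had an unadjusted limma p under 0.05, 12.8% against 21% of all probes. The median was 0.07 for large and 0.09 for small subunit genes and 0.01 over all probes, and 64 genes were higher, where 50.8% of all probes were. Rps21, a small subunit protein at the base of the particle, was 5.64, 5.50 and 5.39 in young TauTKO and 5.90, 5.93 and 5.79 in old TauTKO. All old arrays of Rps21 lay above the young ones, with a log2 fold change of 0.36 (SE 0.10, limma adjusted p = 0.0617). Rpl12, which anchors the stalk, had 0.32 (limma adjusted p = 0.0812), Rpl13a had 0.27 (limma adjusted p = 0.0956) and Rps25, used by some viral and cellular mRNAs for internal entry of ribosomes, had 0.27 (limma adjusted p = 0.107). The count of 0 depended on the setting, and these genes lay near the threshold. It was 4 with quantile normalization (Rpl12, Rpl13a, Rpl38 and Rps21), where 6.22% of all probes were called, 4 with an intensity trend in the test (Rpl12, Rpl13a, Rps21 and Rps25) against 7.17%, and 3 with cyclic loess (Rpl13a, Rps21 and Rps25) against 6.11%. The 2 age comparisons share no arrays, whereas each shares its arrays with a genotype comparison. The test of the difference between the genotype effects of the 2 ages called 0 genes and 0 of all probes, and 0 of the 78 genes had an unadjusted limma p under 0.05, against 5.43% of all probes. By sign alone 69 of the 78 genes were above 0 in this difference, where 45.7% of all probes were. Under the other scalings between 62 and 76 of them were, against 41.7% to 57% of all probes. The largest positive value was that of Rps21, 0.24 (SE 0.14, limma adjusted p = 0.927), and Rps12, Rpl12, Rpl36a and Rpl30 had between 0.18 and 0.22.

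The Rpl3l probe can be compared base by base with the second Rpl3 probe by brightness. The difference Rpl3l minus Rpl3 given below uses the brightest Rpl3 probe. The Rpl3l probe covers bases of chr17:24872413-24872681 of mm9, plus strand, an interval longer than the 60 bases of the probe. The brightest Rpl3 probe carries an mRNA accession without a match in RefSeq and lies at chr5:10559558-10559617, plus strand, and the second Rpl3 probe, which carries a RefSeq accession of Rpl3, lies at chr15:79908489-79908772 on the minus strand. The Rpl3l probe and the second Rpl3 probe are shown 5′ to 3′ because they overlap by 27 bases of aligned sequence, of which 20 are identical (capitals) and 7 differ.
Rpl3l: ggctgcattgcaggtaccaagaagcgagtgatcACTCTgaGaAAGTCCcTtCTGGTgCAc
Rpl3: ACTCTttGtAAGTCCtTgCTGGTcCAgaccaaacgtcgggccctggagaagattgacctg
The 33 remaining bases of each probe lie on opposite sides of the overlap. Of the brightest Rpl3 probe the last 30 bases are given, since they hold AATAAA (capitals), the letters of the common polyadenylation signal.
Rpl3, brightest probe: ctcaccAATAAAatatttctagttaaaaaa
AATAAA was found as the probe is written in the brightest probe of 26 of the 79 genes, and in 5602 of all 55681 probes, and on the other strand in 1 of the 79 against 3.74% of all probes. No run of 20 bases of the Rpl3l probe occurs in a probe of another gene name, whereas 44 of the 79 brightest probes share such a run, on either strand, with a probe of another name. The brightest Rpl3 probe is among these, and shares such a run with 2 probes of other names, 1 of them Gm5879. Its best alignment to the Rpl3l probe covers 20 bases, of which 9 are identical. None of the 79 shares one with a probe of another member.

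Rpl3l was not past the test for genotype or age. Its log2 signal was 6.33, 6.31 and 6.39 in young WT, 6.33, 6.21 and 6.30 in young TauTKO, 6.30, 6.22 and 6.37 in old WT, and 5.95, 6.17 and 6.23 in old TauTKO. The lowest array was old TauTKO replicate 1, and the groups of each age overlapped. The log2 fold change of Rpl3l was -0.18 in old mice (SE 0.09, limma adjusted p = 0.280), -0.06 in young mice (limma adjusted p = 0.851) and -0.05 in old against young WT (limma adjusted p = 0.804). With quantile normalization and with cyclic loess the young value was above 0. The old value was -0.09 without old TauTKO replicate 1 and -0.07 with the median of all probes as the scale. The brightest Rpl3 probe had 4.47, 4.42 and 4.42 in young WT, 4.57, 4.50 and 4.45 in young TauTKO, 4.12, 4.47 and 4.27 in old WT, and 4.77, 4.39 and 4.43 in old TauTKO. Here old TauTKO replicate 1 was the highest array and old WT replicate 1 the lowest. The log2 fold change of Rpl3 was 0.24 in old mice (SE 0.12, limma adjusted p = 0.262) and 0.07 in young mice, and its second probe had 0.24 and 0.12. Without old TauTKO replicate 1 the old value of Rpl3 was 0.12, and without old WT replicate 1 it was 0.16.

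The difference Rpl3l minus Rpl3 within an array does not depend on the scaling by a percentile, and its change between groups was tested. It was 1.86, 1.90 and 1.97 in young WT and 1.76, 1.71 and 1.85 in young TauTKO, so that all young TauTKO arrays lay below the WT arrays. In old mice it was 2.18, 1.75 and 2.09 in WT and 1.18, 1.79 and 1.8 in TauTKO, and these groups overlapped. Group means were 1.91 ± 0.06 in young WT, 1.77 ± 0.07 in young TauTKO, 2.01 ± 0.22 in old WT and 1.59 ± 0.36 in old TauTKO (SD, n = 3 each). Averaged over the 2 ages, the difference was lower by 0.28 in TauTKO on the log2 scale (two-sided exact permutation test within ages, 400 assignments, p = 0.03). Adjustment over 2 pairs of paralogues, the other being Rps27l and Rps27, leaves the larger p as it is. The p of Rpl3l minus Rpl3 was the larger, so its adjusted value of 0.03 adds no support. Within an age the permutation test cannot go below 0.1, the p of the young mice, and gave 0.3 for the old mice. The result rested on few arrays. Without old TauTKO replicate 1 it was -0.18 (exact permutation p = 0.08), without old WT replicate 1 it was -0.24 (exact permutation p = 0.09), and without old WT replicate 3 it was -0.26 (exact permutation p = 0.085). With the second Rpl3 probe it was -0.30 (exact permutation p = 0.05), and with normexp background correction -0.27 (exact permutation p = 0.05). Old TauTKO replicate 1 also stood apart in its fibre markers, with a summed level of 8.08 over the 9 slow fibre genes against 5.33 and 5.18 on the other old TauTKO arrays and 6.18 to 7.11 in old WT. For the fast fibre genes it was the lowest, 12.93 against 13.13 and 13.10. Among markers of other cells it had the highest summed level of its group for fat cells, 7.54 against 6.46 and 6.74, Schwann cells, 3.47 against 2.63 and 2.68, and fibroblasts and matrix, 8.08 against 7.80 and 7.86. Fibre markers also differed between the old groups. All old TauTKO arrays had a lower summed level of fast fibre genes than the old WT arrays, which lay between 13.23 and 13.38. By sign 10 of the 11 fast fibre genes were lower, with a median of -0.23, and 1 fell past the test, Ckm, the muscle creatine kinase, by 0.43 (limma adjusted p = 0.0388). The slow fibre genes were mixed. By sign 8 of the 9 were higher in old TauTKO, with a median of 1.16. The remaining gene, Myl3, was lower and past the test, where 2.52% of all probes fell. Of 11 genes known to respond to denervation 3 rose, against 3.58% of all probes, namely Ncam1 by 2.16, Runx1 by 1.44 and Chrna1, a subunit of the acetylcholine receptor, by 0.49 (limma adjusted p = 0.00123, 0.00916 and 0.0335). By sign 7 of the 11 were higher and 4 lower. The median of the 11 was 0.28. Their summed level, in which the brightest genes weigh most, was 5.92 to 6.09 in old TauTKO and 6.08 to 6.26 in old WT. The calls of Ckm and Chrna1 were lost in 9 and 6 of the 12 fits with an array left out, old WT replicates 1 and 3 and old TauTKO replicate 2 among these arrays for both, and Runx1 had 0.77 with normexp. The part of these markers in the difference was not tested.

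**Figure D4:**
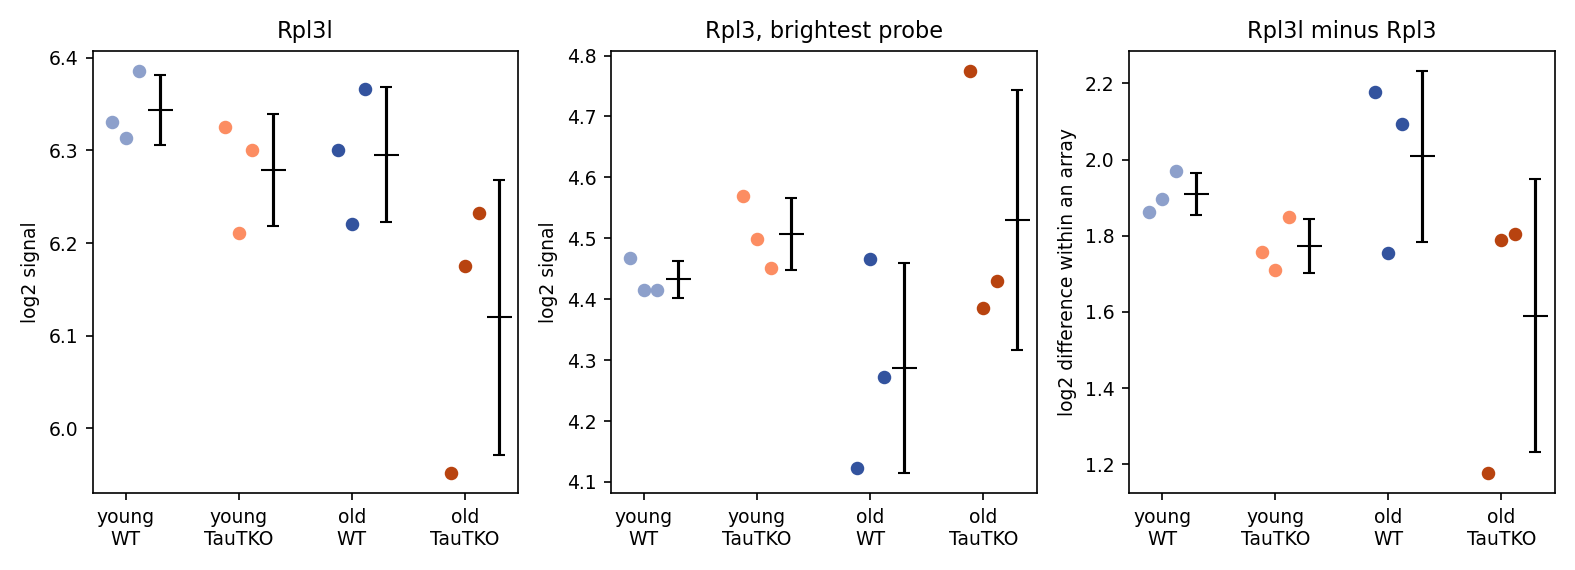
Log2 signal of the Rpl3l probe (left), of the brightest Rpl3 probe (middle) and their difference within each array (right), with points for arrays, and the group mean and SD in black. Each panel has its own vertical scale. The right panel shows young group means apart by 0.14 and old TauTKO replicate 1 at 1.18, below all other arrays. The nearest arrays of the young groups lie at 1.85 in TauTKO and 1.86 in WT.

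The other paralogue pairs gave smaller or less certain readings. Rps27l, a paralogue of Rps27 that p53 activates, was 5.84, 5.79 and 5.95 in old WT and 5.98, 5.96 and 5.96 in old TauTKO. These groups did not overlap, and the log2 fold change of Rps27l was 0.11 (limma adjusted p = 0.528). Rps27 itself had -0.15 in old mice (limma adjusted p = 0.353) and -0.14 in young mice. The difference Rps27l minus Rps27 was -1.28, -1.50 and -1.33 in old WT and -1.15, -1.09 and -1.09 in old TauTKO, and all TauTKO arrays lay above the WT arrays. In young mice it was -1.20, -1.09 and -1.13 in WT and -0.94, -1.12 and -1.08 in TauTKO, which overlap. Averaged over the ages it was higher by 0.18 in TauTKO, and between 0.14 and 0.20 with each array left out in turn. This pair was singled out after its values were seen, so the difference is a description and no p is given for it. Rpl39l, a testis-type paralogue of Rpl39, was near background, well above it on all 3 arrays of young WT, young TauTKO and old TauTKO and on 1 array of old WT. Its log2 signal was -4.62, -3.54 and -3.72 in young WT and -2.24, -2.70 and -2.59 in young TauTKO, and the log2 fold change was 1.45 (SE 0.54, limma adjusted p = 0.285). Rpl39l was the one member whose 95% interval was wider than 1.5-fold. Rpl39 itself, at the exit tunnel of the large subunit, had -0.03 in old and -0.16 in young mice.

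The choice of probe mattered for a few genes. Besides the brightest probes, 101 probes of the same genes were tested, and 5 of them were past the test in old mice and 1 in young mice, where 6.1% and 0.836% of all probes were. Among 60 genes with a second tested probe, the log2 fold changes of both probes had the same sign for 47 in old mice and 55 in young mice. The probes described next were singled out after their values were seen. Rpl22, a large subunit protein that is dispensable for most translation and needed by developing T cells, was read by a bright probe at chr4:151706515-151706574 and a dimmer one at chr4:151708012-151708071, both on the plus strand of mm9. Their first 30 bases, and those of the probe of Rpl22l1, the paralogue of Rpl22, at chr3:28706237-28706296, are shown because the 3 probes gave different readings. They are in lower case throughout, with no part marked.
Rpl22, bright probe: ggaggaagacgaggattaggacacattggt
Rpl22, dimmer probe: gctgtaaacaacattaaccctgggttgatt
Rpl22l1: cagagtctgaggactaattggcctctgctt

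On the bright probe Rpl22 was 5.98, 5.94 and 6.06 in old WT and 6.08, 6.15 and 6.05 in old TauTKO, and this probe had a difference of 0.10 between the old groups (limma adjusted p = 0.562) and 0.03 in young mice. On the dimmer probe it was 3.27, 3.14 and 3.49 in old WT and 2.60, 2.47 and 2.58 in old TauTKO. In young mice the dimmer probe gave 3.26, 2.96 and 3.24 in WT and 2.37, 2.25 and 2.38 in TauTKO. The arrays labelled TauTKO thus lay below the WT arrays at both ages, with log2 fold changes of -0.75 in old mice (SE 0.11, limma adjusted p = 0.00578) and -0.82 in young mice (SE 0.11, limma adjusted p = 0.0164). The call in old mice was kept with each array left out in turn. The call in young mice was lost without young WT replicate 1 (limma adjusted p = 0.0893), young WT replicate 3 (0.0735), young TauTKO replicate 2 (0.0783) or young TauTKO replicate 3 (0.0567). Rpl22l1, whose name the rule does not take, fell in TauTKO at both ages. It was 5.0, 4.98 and 5.12 in old WT and 4.25, 4.50 and 4.54 in old TauTKO, and 5.22, 5.13 and 5.28 in young WT and 4.64, 4.24 and 4.49 in young TauTKO. Log2 fold changes were -0.60 in old mice (SE 0.12, limma adjusted p = 0.0164) and -0.75 in young mice (SE 0.12, limma adjusted p = 0.0261). The call of Rpl22l1 was lost in old mice without old WT replicate 1 (limma adjusted p = 0.0569) or old WT replicate 3 (0.0718). In young mice it was lost without young WT replicate 1, 2 or 3, young TauTKO replicate 2 or 3 or old WT replicate 1, with limma adjusted p-values between 0.0512 and 0.113. When only the arrays of 1 age were fitted, the limma adjusted p was 0.0677 in old and 0.0711 in young mice for the dimmer Rpl22 probe, and 0.0905 and 0.0893 for Rpl22l1.

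**Figure D5:**
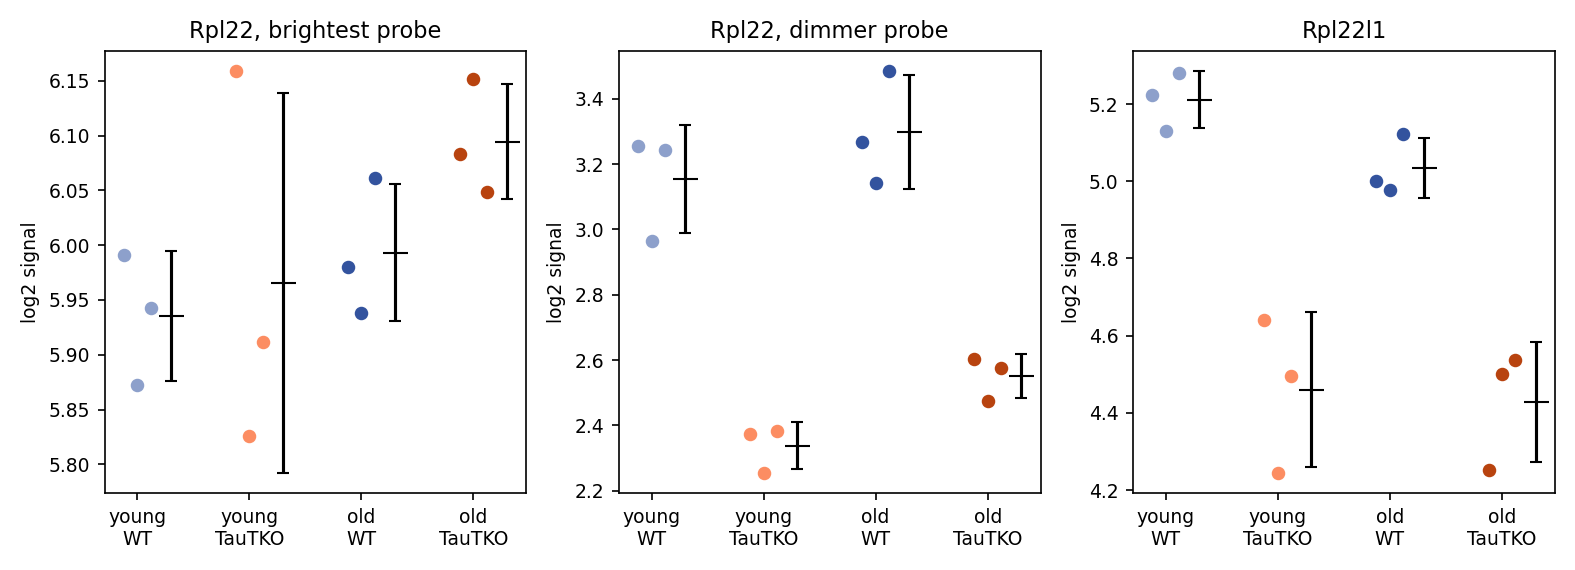
Log2 signal of the bright (left) and the dimmer (middle) Rpl22 probe and of Rpl22l1 (right), with points for arrays, and the group mean and SD in black. Each panel has its own vertical scale. In the middle and right panels every TauTKO array lies below every WT array, and in the left panel the groups overlap.

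Rpl13a was read by 2 dimmer probes besides its brightest one, and both rose in old mice labelled TauTKO. The second probe by brightness was 1.09, 1.15 and 1.26 in old WT and 1.89, 1.67 and 1.57 in old TauTKO. Its log2 fold change was 0.54 (limma adjusted p = 0.0116), and that of the third was 0.56 (limma adjusted p = 0.0265). The brightest probe of Rpl13a pointed the same way with 0.16. In old against young WT the signs of the probes differed, with 0.17 for the brightest, -0.34 for the second and -0.26 for the third, none of them past the test. A second probe of Rps25 had 0.58 in old mice (limma adjusted p = 0.0223) against 0.02 for the brightest, but 0.20 (limma adjusted p = 0.185) with normexp background correction. A dim probe of Rpl17 had 0.45 (limma adjusted p = 0.0164). Without old WT replicate 1 none of these calls of Rpl13a, Rps25 and Rpl17 was kept, with limma adjusted p-values of 0.0563 and 0.103 for the 2 Rpl13a probes, 0.0887 for Rps25 and 0.071 for Rpl17. The third Rpl13a probe also lost its call without old WT replicate 2 or old TauTKO replicate 1 or 2, Rps25 without old WT replicate 3 or old TauTKO replicate 2, and Rpl17 without old WT replicate 3. Rpl36al, a paralogue of Rpl36a outside the rule, was 5.59, 5.65 and 5.69 in old WT and 6.0, 6.21 and 6.32 in old TauTKO. All old TauTKO arrays of Rpl36al lay above the WT arrays. The log2 fold change was 0.54 (limma adjusted p = 0.0238) at 18 months and 0.30 at 3 months (limma adjusted p = 0.285). Its call in old mice was lost without old WT replicate 1, 2 or 3 or old TauTKO replicate 2 or 3. Rpsa, Fau and Gnb2l1, which encode further ribosomal or ribosome-bound proteins, and Rpl7l1 were not past the test at either age, with log2 fold changes in old mice between -0.08 and 0.14.

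Few other genes of the translation machinery were past the test. Of 75 proteins of the mitochondrial ribosome, 2 fell in old TauTKO, a share close to the 2.52% of all probes that fell. On the log2 scale Mrpl35 fell by 0.75 (limma adjusted p = 0.00575) and Mrpl14 fell by 0.46 (limma adjusted p = 0.0473). In young mice 1 fell, Mrpl35, by 0.62 (limma adjusted p = 0.0406), where 0.836% of all probes changed. The median over the 75 genes was -0.15 in old and -0.12 in young mice, beside -0.08 and -0.03 over all probes. By sign 60 of them were lower in old and 62 in young mice, where 60.5% and 55.4% of all probes were. In old against young WT 71 of the 75 were lower, against 45.2% of all probes. Of 36 initiation factors 1 fell in old mice, Eif2b3, a subunit of the exchange factor of eIF2, by 0.52 (limma adjusted p = 0.0297), and of 37 ribosome assembly genes 1 fell, Nop10, a protein of the particles that modify ribosomal RNA, by 0.41 (limma adjusted p = 0.0318). Of 23 genes that control translation in growth and stress 1 rose in old mice, Eif2ak1, the heme-regulated kinase of eIF2, by 0.44 (limma adjusted p = 0.0382), and of 12 elongation and release factors 0 were past the test. These counts of 0 or 1 a list stand beside the 6.1% of all probes that changed, and nothing is read from them about the lists. In young mice 0 genes of these last 4 lists were past the test. By sign 30 of the 37 assembly genes, 26 of the 36 initiation factors and 9 of the 12 elongation and release factors were lower there. Of the 23 growth and stress genes 11 were lower, and of all probes 55.4%. The lower direction of the ribosomal protein genes in young mice was thus shared by most of these lists. Mrpl35 kept its call in old mice with each array left out in turn, and in young mice it kept it only without old WT replicate 2 or old TauTKO replicate 1. Mrpl14 lost its call in 10 of the 12 fits with an array left out, Eif2ak1 in 8, Nop10 in 6 and Eif2b3 in 4, and old WT replicates 1 and 3 were among these arrays for each of the 4 genes. Markers of macrophages and of fibroblasts and matrix moved more than the ribosomal protein genes did. In old TauTKO against old WT 5 of 8 macrophage markers and 5 of 7 fibroblast and matrix markers rose, with medians of 0.88 and 0.79, where 3.58% of all probes rose. Of the fat cell, lymphocyte, red blood cell and Schwann cell markers 0 were past the test there, and of 5 endothelial markers 1 rose, Vwf. Signs among the 5 endothelial markers were split, 3 negative and 2 positive, and their median was -0.07. In old against young WT all 7 fibroblast and matrix markers fell, with a median of -1.82, where 2.4% of all probes fell. Of the 8 macrophage markers 3 fell in that comparison, with a median of -0.63. The summed level of the macrophage markers was 3.37 to 3.75 in old WT and 4.22 to 4.41 in old TauTKO, and that of the fibroblast and matrix markers was 7.25 to 7.39 in old WT and 7.80 to 8.08 in old TauTKO. The part of these cells in the values of the ribosomal protein genes was not tested.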

How the data were processed

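The authors deposited the scanner output of each array (Feature Extraction version 10.10.1.1, per the submitters' processing notes), from which the background-corrected spot intensity on a linear scale was taken, and a summary of the series, used as an alternative, with the same intensities rounded to whole numbers (99.9% or more of the probes with 1 spot were equal on each array, within 0.51). In R 4.3.3 (with limma 3.58.1), log2 intensity minus the array's 75th percentile was computed, outlier spots were left out and the spots of a probe averaged. A probe was tested when some group had all 3 arrays well above background (lmFit and eBayes, 4 group means), in a procedure checked on simulated data. The methods used GeneSpring, unpaired tests per probe and a fold of 1.8. Members and lists were chosen with earlier results of these data known. Named genes were the paralogue pairs, the stalk proteins, Rps6, Rpl5, Rpl11 and Rps19, the members with the smallest adjusted p in each comparison, members not above background, and genes past the test in the other lists. Some genes under this rule are not reported here. Coordinates (mm9) come from the scanner output. Exons and UTRs were not analysed here. The number of arrays limits the precision, and 0 probes were saturated. Other scalings, filters, probes, tests, blocks and each array left out were tried.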

Additional observations from a re-analysis of the deposited data

How the results depend on the processing

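The count of ribosomal protein genes past the test was 0 in both genotype and both age comparisons and in the interaction, and stayed 0 with each array left out (lowest 0, highest 0) and under the other alternatives except these. In old mice it was 1 with normexp (Rpl36a, 0.31, limma adjusted p = 0.0438), 1.28% against 8.1% of all probes. It was 1 with the mean of all probes of a gene (Rpl13a, 0.42, limma adjusted p = 0.0321), 1.28% against 6.1%. With the second brightest probe it was 3 of 60, 5% against 6.1%. In young mice it was 1 of 60 with the second brightest probe, 1.67% against 0.836% of all probes. With the methods' test at an unadjusted p and 1.8-fold it was 1 (Rpl39l), 1.28% against 1.12%. Both young shares were above those of all probes and rest on 1 gene each. The alternatives of old against young TauTKO were chosen after seeing the data. There the count was 4 with quantile normalization and with an intensity trend, and 3 with cyclic loess. It was 1 each with the percentile of probes well above background, that filter and array weights (Rps21). With normexp and the methods' test with 1.8-fold it was also 1 each (Rpl39l). In this comparison no share was above that of all probes. Medians of subunits moved with the scaling. With the median of all probes they were 0.11 (large) and 0.10 (small) in old mice, -0.11 and -0.10 in old against young WT, and 0.17 for the small subunit in the interaction. With quantile normalization they were 0.066 (small) in old mice and -0.00058 (large) and -0.0092 (small) in young mice, and with cyclic loess 0.0016 and -0.0239 in young mice. Rpl3l in young mice turned to 0.0159 (quantile) and 0.00958 (cyclic loess), and Rpl13a in old against young WT to -0.14 with the mean of its probes. The cause was not tested.

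With each array left out in turn, Rpl3l minus Rpl3 lay between -0.34 and -0.18 (exact permutation p between 0.005 and 0.09). It was -0.27 with normexp and -0.30 with the second Rpl3 probe, an alternative chosen after seeing the data (exact permutation p = 0.05 each). Correlations between the deviations of same-numbered arrays lay between -0.14 and 0.32. Replicate 3 matched replicate 3 best between young TauTKO and young WT (0.32) and between old WT and young WT (0.27). The other same-numbered arrays were not best matches. These correlations do not show that the replicate numbers pair the mice, and cannot exclude it. With the replicate number as a block the counts of members stayed 0, Rpl3l in old mice had a limma adjusted p of 0.283, and Rpl3l minus Rpl3, -0.28, had an exact p of 0.0625 by flipping the signs of same-numbered pairs. The calls of the dimmer probes, Rpl22l1, Rpl36al, Ckm and the other translation genes were all lost when only the groups compared were fitted and with the methods' test, after Benjamini-Hochberg adjustment or with 1.8-fold. In old mice, Mrpl14 lost its call under 6 further alternatives, namely the replicate block (limma adjusted p = 0.0737), the slide row as a block, the median scaling, array weights, the deposited table and no filter on dim probes. Nop10 lost it with the replicate block (0.0615), the slide row, the median scaling and no filter, Eif2ak1 with the replicate block (0.068), the slide row and no filter, and Eif2b3 with the slide row, the median scaling and no filter. The second Rps25 probe lost it with normexp, an intensity trend and no filter, Rpl36al and the third Rpl13a probe with no filter, Ckm with the median scaling, quantile, cyclic loess, array weights and no filter, and Chrna1 with both blocks, no filter, only the groups compared and 1.8-fold. Ncam1, Runx1 and Chrna1 lost theirs with the methods' test after adjustment. In young mice, Rpl22l1 lost it with the slide row and no filter, and Mrpl35 with these and the median scaling. In the deposited table of the series the columns of replicates 1 and 2 of old WT and of old TauTKO are exchanged relative to the scanner files, which leaves the group comparisons as they are.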
